A study of Caenorhabditis elegans with 6 samples.

Results

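The comparison described here set larvae homozygous for sdhb-1(gk165), a deletion allele of the gene for the iron-sulphur subunit of succinate dehydrogenase (SDHB-1), against wild-type larvae of the L3 stage. Both members of the comparison are single libraries, 1 of gk165 (L2) and 1 of WT (L3), out of 6 libraries in the series, and they were described over all 12798 genes of the table. gk165 (L2) was RNA of whole sdhb-1(gk165) homozygotes, which arrest at the L2 stage and came from strain VC294, where the deletion is kept over the balancer mIn1 carrying mIs14 [myo-2::gfp; pes-10::gfp] and dpy-10(e128). WT (L3) was RNA of whole larvae of the Bristol N2 strain labelled L3. The wild-type libraries WT (L2) and WT (L4), of the same strain at the stages before and after, are given beside the 2 compared libraries for context only. Each library is a pool of whole worms grown on seeded plates, sequenced once as polyadenylated RNA, so that no difference below has a replicate check and none carries a p-value. The L2 in the name gk165 (L2) is the stage of arrest, since the label of that sample gives no stage. Genotype and stage changed together between gk165 (L2) and WT (L3), and their parts cannot be told apart.

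Succinate dehydrogenase works both in the tricarboxylic acid (TCA) cycle and as complex II of the mitochondrial respiratory chain. In the larval life of Caenorhabditis elegans each stage ends in a molt, in which the epidermis secretes a new cuticle made mostly of collagens and sheds the old one, and many cuticle and molting genes are switched on and off once in every stage. The L3 is the stage in which the vulval precursor cells are induced, the gonad arms extend and the germ cells multiply, while heterochronic genes set which cell fates belong to which stage. In RNA of whole worms, fewer cells of a type and less RNA per cell cannot be told apart.

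The gk165 (L2) library held 279254 reads on the listed exons and the WT (L3) library 580259, recovered from the deposited values, and 50.3% of 53267 exons had no read in gk165 (L2), against 17.2% in WT (L3). A gene's level is the mean RPKM (reads scaled to exon length and library size) over its exons, its ratio is the log2 of gk165 (L2) RPKM + 1 over WT (L3) RPKM + 1, and a counting interval is the exact 95% interval of the ratio of the pooled reads, which covers counting error in these 2 libraries only. Because the level is a mean over exons and the interval is one of pooled reads, a ratio can lie outside its interval, and an n-fold difference below is the ratio of RPKM + 1. Some recovered read numbers are fractions. sdhb-1 itself (chromosome II, 9350648 to 9352801, WBcel235) had 5 reads in gk165 (L2), all in its last exon, against 142 in WT (L3), spread over all 6 exons. cup-15, the neighbour of which the deletion also removes part, had 0 reads in gk165 (L2) and 4 in WT (L3), too few for a ratio.

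Reads lay nearer to the 3′ end in gk165 (L2) than in the wild-type libraries, and the ratio to WT (L3) moved with gene length. Over 586 genes with at least 4 exons and 20 reads in each library, the median of a gene's mean read position, from 0 at the 5′ end to 1 at the 3′ end, was 0.672 in gk165 (L2) and 0.575 in WT (L3), while WT (L2) stood at 0.598 and WT (L4) at 0.541. The median log2 ratio was 0.44 in the first decile of genes by exon length (up to 585 bp) and -1.13 in the last (3322 bp and more), while the ratio of WT (L3) to WT (L2) stayed between 0.33 and 0.49 in all 10 deciles. The median ratio of WT (L4) to WT (L3) did move with length, from -0.40 in the first decile to 0.26 in the last. From the 3′-most exon alone the gk165 (L2) to WT (L3) medians of the first and last deciles were still 0.85 and -0.49. The part of RNA quality in these differences was not tested. Most list medians below are given also with each gene's ratio centred on the median of genes of like length (length-centred).

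**Figure D1:**
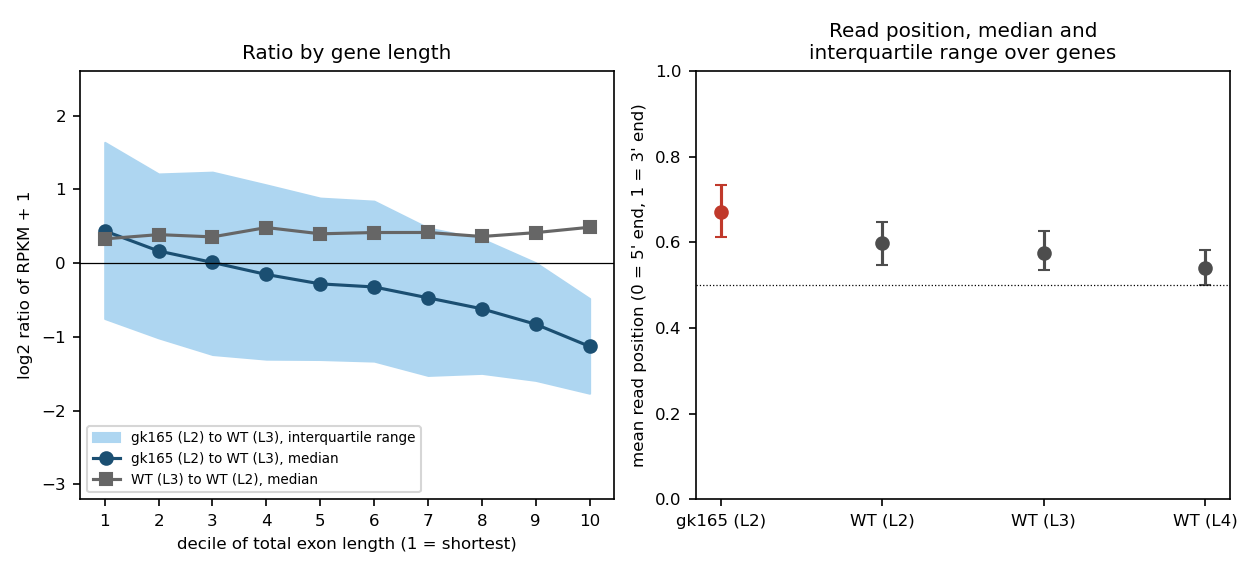
Left, the log2 ratio of gk165 (L2) to WT (L3) and of WT (L3) to WT (L2) by decile of total exon length (points, medians; band, interquartile range over genes); right, the mean read position within genes in 4 libraries (points, medians; bars, interquartile range over 586 genes). The gk165 (L2) to WT (L3) median runs down with length, 0.44 to -1.13, and the gk165 (L2) reads lie nearest to the 3′ end at 0.672.

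Of 11351 genes with at least 5 RPKM in 1 of the 2 libraries, 20.7% (2349) had a level in gk165 (L2) at least 2 times that in WT (L3), and 34.8% (3946) lay at least 2-fold below it, around a median log2 ratio of -0.38. Length-centred, 25.6% passed the 2-fold line upward and 24.7% downward. These shares over all genes are the background for every count of list members below. The counting interval also excluded no change for 1222 of the higher and 1970 of the lower genes. By level, 40.3% of the genes lay below both WT (L2) and WT (L3) in gk165 (L2), and 36.1% lay above both. Among 46 gene lists the lowest medians belonged to molting genes, heterochronic genes, vacuolar ATPase subunits, enzymes that process collagen and body-shape collagens, and the highest, among lists with at least 8 genes tested and 30 reads, to transthyretin-like proteins, DAF-16 and dauer-associated genes and cytochrome P450s. Length-centred, the 9 genes of the glyoxylate shunt and gluconeogenesis had the highest median among these lists, 1.35.

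**Figure D2:**
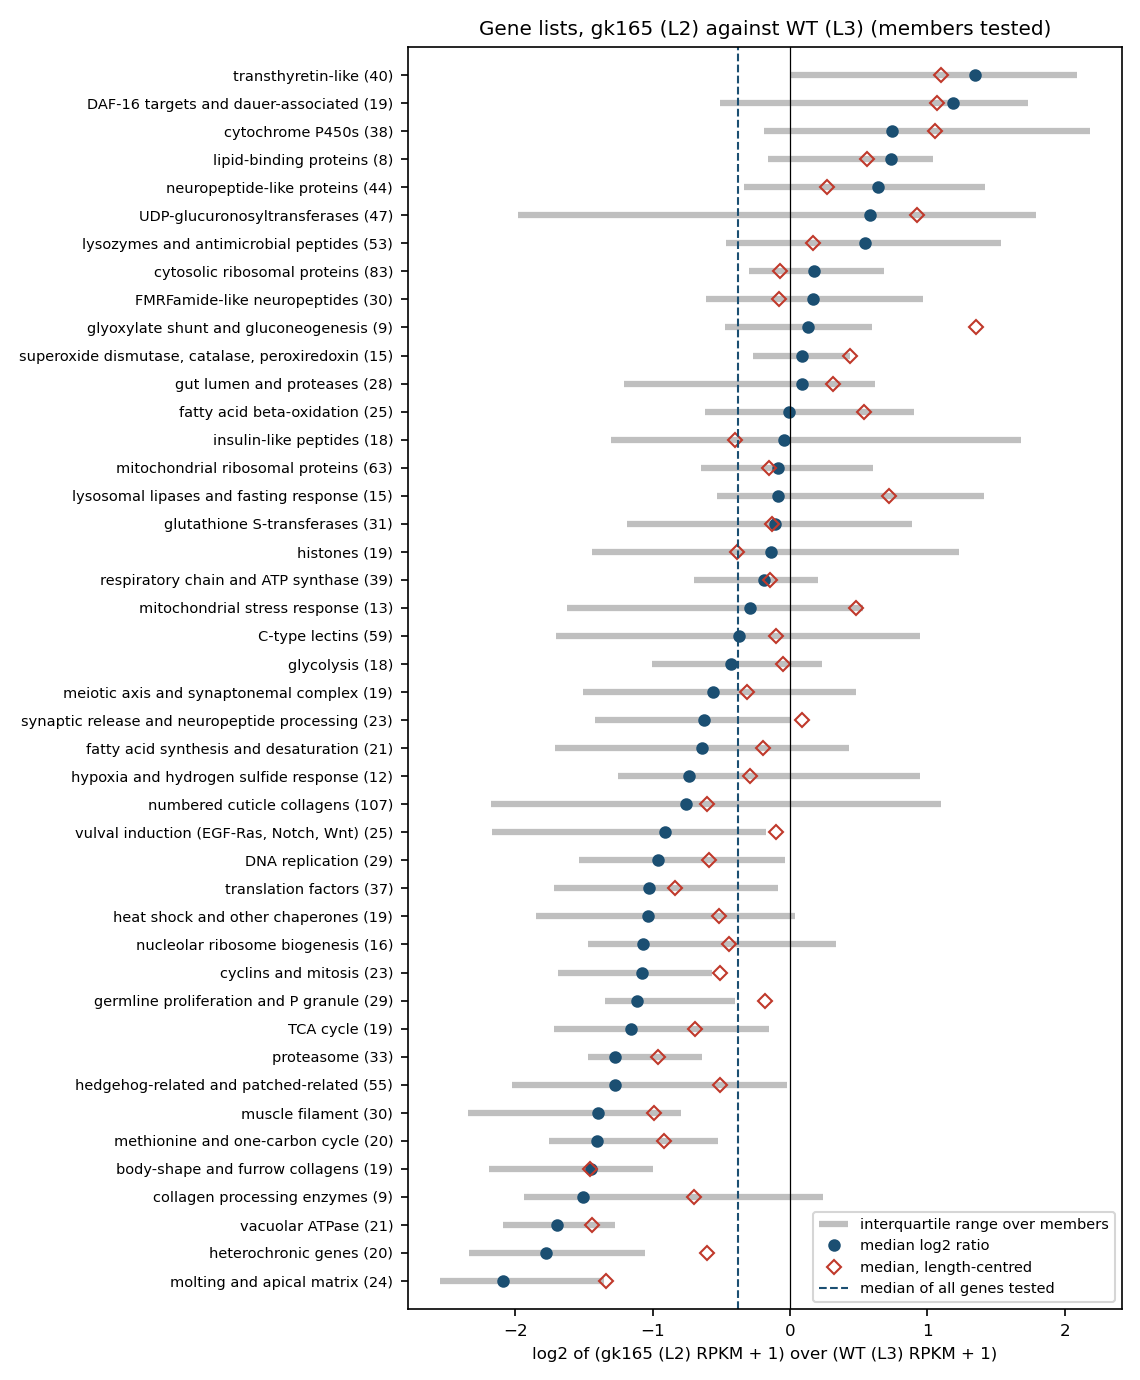
Median log2 ratio of gk165 (L2) to WT (L3) for each gene list with at least 8 genes tested and 30 reads (circles; bars, interquartile range over members), the same after centring on genes of like length (diamonds), and the median of all genes tested at -0.38 (dashed line). Molting genes (-2.09), vacuolar ATPase (-1.70) and body-shape collagens (-1.45) stay below -1 after centring, and transthyretin-like genes (1.35), DAF-16 and dauer-associated genes (1.19) and cytochrome P450s (0.75) lie on the other side.

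Cuticle collagens, the largest gene family behind the larval skin, were mostly lower in the arrested larvae, and in sum their level in gk165 (L2) was below that of every wild-type stage. Summed over 139 collagen genes the level was 15342 RPKM in gk165 (L2), against 42907 RPKM in WT (L3), with 36263 RPKM in WT (L2) and 60038 RPKM in WT (L4). Of 126 collagens tested, 66 were at least 2-fold lower and 28 at least 2-fold higher, with a median log2 ratio of -1.05 (length-centred -0.84). Of all genes, 34.8% were lower and 20.7% higher. The collagens whose mutants are short, squat, rolling or blistered had the lower median of the 2 collagen lists: 14 of 19 were at least 2-fold lower and 1 was higher, with a median of -1.45 (length-centred -1.45).

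dpy-13, needed for normal body length, had 1171 RPKM in gk165 (L2), against 3192 RPKM in WT (L3), with 3647 RPKM in WT (L2) and 2119.6 RPKM in WT (L4). dpy-5 had 1183 RPKM in gk165 (L2) and 2401 RPKM in WT (L3), a log2 ratio of -1.02 (counting interval -1.21 to -0.84). dpy-4 had 404 RPKM in gk165 (L2), against 2259 RPKM in WT (L3) and 2057 RPKM in WT (L2), 5.58-fold lower. These are cuticle collagens whose loss makes short, fat worms. sqt-3, which encodes a collagen of the larval cuticles (chromosome V, 12352994 to 12354314), had 186 RPKM (63 reads) in gk165 (L2), against 1944 RPKM (1301 reads) in WT (L3), 10.4-fold lower (log2 -3.38, counting interval -3.75 to -2.99). All 4 were also lower in gk165 (L2) than in WT (L2), the stage at which the mutant arrests. sqt-2, named after its values were seen, followed the same order, with 30.8 RPKM in gk165 (L2), 389.5 RPKM in WT (L3) and 529 RPKM in WT (L2).

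Among the numbered collagens, col-107 had 700.4 RPKM in gk165 (L2) and 2586 RPKM in WT (L3), and col-125 had 540.0 and 2717 RPKM in the same libraries. col-17 had 567 RPKM in gk165 (L2), against 2267 RPKM in WT (L3) and 2819.8 RPKM in WT (L2). col-166 stood at 180.3 RPKM in gk165 (L2) and 1349.8 RPKM in WT (L3), 7.45-fold lower (log2 -2.90). These are the numbered collagens with the most reads, and each was lower in gk165 (L2) than in both WT (L2) and WT (L3). cut-2 (chromosome V, 13414902 to 13416121), which encodes a cuticlin, an insoluble cuticle protein, was among the 12 largest differences of all genes, with 78.6 RPKM (31 reads) in gk165 (L2), against 1709 RPKM (1328 reads) in WT (L3) and 2439 RPKM in WT (L2), 21.5-fold lower (log2 -4.42, counting interval -4.97 to -3.90).

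The 3 collagens among the 12 largest lower ratios of all genes had next to no reads in gk165 (L2). col-156 had 0 reads in gk165 (L2), against 92 in WT (L3) and 138 in WT (L4), at least 15.2-fold lower than in WT (L3) when set against a floor of 3 reads. col-162 had 1 read in gk165 (L2) and 101 in WT (L3) (counting interval -10.96 to -3.14), with 4.63, 199 and 634 RPKM in gk165 (L2), WT (L3) and WT (L4). col-145 likewise had 1 read in gk165 (L2), 92 in WT (L3) and 633 in WT (L4), a level of 4.81 RPKM in gk165 (L2) and 127 RPKM in WT (L3). Divided by how they moved between WT (L2) and WT (L4), which uses neither of the 2 compared libraries, collagens at least 2-fold higher in WT (L4) had a median ratio of -1.01 (58 tested, length-centred -0.70), those at least 2-fold lower in WT (L4) -1.23 (37 tested, length-centred -0.86) and the rest -1.06 (31 tested, length-centred -0.99). Length-centred, none of these 3 medians passed the 2-fold line. The first class was the most divided, with 18 of 58 at least 2-fold higher and 29 lower in gk165 (L2). The second had 7 of 37 higher and 20 lower, and the rest 3 of 31 higher and 17 lower.

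The 28 of 126 collagens at least 2-fold higher were a share close to that of all genes, 20.7%. Those named here had almost no reads in WT (L3). col-43 (chromosome V, 8049744 to 8050051) had the largest positive ratio of all genes with at least 30 reads in the higher library, with 113.5 reads in gk165 (L2) and none in WT (L2), WT (L3) or WT (L4), at least 76.3-fold higher than in WT (L3). Named after their values were seen, col-158 had 73.5 reads in gk165 (L2) and 2.5 in WT (L3) (log2 5.42, counting interval 4.32 to 9.29), and dpy-17, needed for the secretion of SQT-3, had 15 reads in gk165 (L2) and 1 in WT (L3) (log2 3.54, counting interval 2.22 to 10.31). dpy-17 was therefore the 1 body-shape collagen above the 2-fold line. col-19, a collagen of the adult cuticle also named after its values were seen, had 5 reads in gk165 (L2) and 0 in WT (L3), against 1017.33 in WT (L4).

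**Figure D3:**
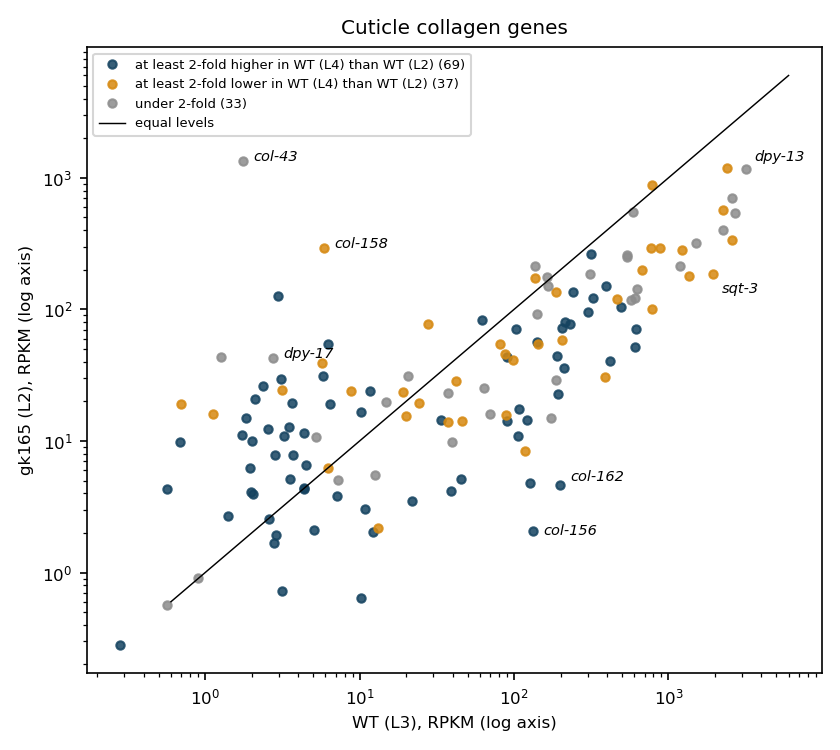
Level of each of 139 cuticle collagen genes in gk165 (L2) (vertical, RPKM, log axis) against WT (L3) (horizontal, RPKM, log axis), coloured by the ratio of WT (L4) to WT (L2), with genes without a read drawn at the level of the offset in the deposited values. Most abundant collagens of all 3 colours lie below the line of equal levels, while col-43, col-158 and dpy-17 lie far above it.

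The enzymes that fold, modify and cut collagen were also mostly lower, though less clearly once length was taken into account. Of 9 tested, 6 were at least 2-fold lower and 2 higher, with a median of -1.51 (length-centred -0.70). pdi-2, the disulphide isomerase that doubles as a subunit of collagen prolyl 4-hydroxylase, had 685 RPKM in gk165 (L2) and 1453 RPKM in WT (L3), but from its 3′-most exon alone the log2 ratio was 0.04 and not -1.08. The hydroxylase subunit dpy-18 had 34.2 RPKM in gk165 (L2) and 99.3 RPKM in WT (L3) (log2 -1.51, counting interval -2.56 to -1.04), and its partner phy-2 had 7 reads in gk165 (L2) and 56.01 in WT (L3) (log2 -1.61). bli-4, a convertase that trims collagen precursors, had 9.33 RPKM in gk165 (L2) and 39.7 RPKM in WT (L3).

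Genes of the molt and of the apical matrix formed the lowest of all 46 lists. Of 24 tested, 20 were at least 2-fold lower and 1 at least 2-fold higher in gk165 (L2), with a median log2 ratio of -2.09 (length-centred -1.34). Their summed level was 415 RPKM in gk165 (L2), against 1698 RPKM in WT (L3), with 1359 RPKM in WT (L2) and 523 RPKM in WT (L4). In 21 of the 24 genes the gk165 (L2) level lay below both WT (L2) and WT (L3), where 40.3% of all genes did. Because these genes peak once per larval stage, and the hour within the stage at which each pool was taken is not given in the sources used here, time within the stage cannot be told apart from genotype.

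lrp-1, a megalin-like receptor that molting requires, had 36 reads and 8.11 RPKM in gk165 (L2), against 503.5 reads and 53.4 RPKM in WT (L3) (log2 -2.58, counting interval -3.33 to -2.31). noah-2, a zona pellucida domain protein of the apical matrix, had 54.4 RPKM in gk165 (L2) and 257 RPKM in WT (L3) (log2 -2.22, counting interval -2.72 to -1.73), with 158 RPKM in WT (L2) and 18.8 RPKM in WT (L4). mlt-11, a Kunitz-type protease inhibitor, had 20.3 RPKM in gk165 (L2) and 100.2 RPKM in WT (L3) (log2 -2.25, counting interval -2.91 to -1.93), and qua-1, a hedgehog-related protein, had 18.1 and 73.5 RPKM (log2 -1.97, counting interval -1.83 to -0.85). Length-centred, the log2 ratios of these 4 most-read molting genes were smaller, -1.30 for lrp-1, -1.41 for noah-2, -0.97 for mlt-11 and -1.03 for qua-1.

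The 5 molting genes that follow were named after their values were seen. The largest ratios of the list were those of mlt-10, a proline-rich protein, with 5 reads in gk165 (L2) and 191.5 in WT (L3) (log2 -3.64), and acn-1, which encodes a protein like angiotensin-converting enzyme, with 4.5 reads in gk165 (L2) and 118 in WT (L3) (log2 -3.60). The lipocalin gene lpr-3 had 6 reads in gk165 (L2) and 133 in WT (L3) (log2 -3.40). The nuclear receptor gene nhr-23, which drives molting cycles, was not lower in the same way, with 13.4 RPKM in gk165 (L2) and 15.9 RPKM in WT (L3) (log2 -0.23, counting interval -0.89 to 1.38, on 12 and 19.5 reads). The 1 member at least 2-fold higher was peb-1, a DNA-binding protein, on 9 reads in gk165 (L2) and 6 in WT (L3).

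Hedgehog-related ligands and patched-related receptors, a large nematode family that acts in the epidermis and in molting, were lower in part. Of 55 tested, 29 were at least 2-fold lower and 4 at least 2-fold higher, with a median of -1.28 (length-centred -0.51), and the sum was 1916 RPKM in gk165 (L2), against 4639 RPKM in WT (L3). grl-16, a groundhog-like ligand (chromosome I, 572177 to 575120), gave the largest single difference in level of the list, with 102 RPKM (43 reads) in gk165 (L2), against 1041 RPKM (775 reads) in WT (L3), a lower level (log2 -3.34, counting interval -3.64 to -2.72). grl-7 of the same subfamily had 33.0 RPKM in gk165 (L2) and 249 RPKM in WT (L3) (log2 -2.88, counting interval -3.79 to -1.88). Divided after the values were seen, the 31 ligands had a median of -1.18 (length-centred -1.21) and the 24 receptors of the ptc and ptr families -1.29 (length-centred -0.18), with 16 of the ligands and 13 of the receptors at least 2-fold lower. Among the receptors, ptc-3 had 31.9 RPKM in gk165 (L2) and 78.8 RPKM in WT (L3), a log2 ratio of -1.28 that was 0.00 length-centred, and ptc-1 had 34.4 RPKM in gk165 (L2) and 36.6 RPKM in WT (L3) (log2 -0.09, counting interval -0.30 to 0.63). Named after its values were seen, grd-3 was higher, with 378 RPKM in gk165 (L2) and 136 RPKM in WT (L3).

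Heterochronic genes, the clock of larval cell fates, had no member at least 2-fold higher: 15 of 20 tested were at least 2-fold lower and 0 at least 2-fold higher, with a median of -1.78. These are long genes, and length-centred the median was -0.60, with 7 at least 2-fold lower and 1 higher. lin-42 (chromosome II, 1233236 to 1243673), the worm relative of Period whose mRNA cycles with the molts, had 15.8 RPKM (20 reads) in gk165 (L2), against 188 RPKM (363 reads) in WT (L3) and 196 RPKM in WT (L2), 11.3-fold lower (log2 -3.49, counting interval -3.90 to -2.52, length-centred -2.55). alg-1, an Argonaute that serves the timing microRNAs, had 8.77 RPKM in gk165 (L2) and 33.7 RPKM in WT (L3) (log2 -1.83, length-centred -0.55), and the F-box gene dre-1 had 15.4 and 56.8 RPKM (log2 -1.82, length-centred -0.88). sea-2 had 21.5 RPKM in gk165 (L2) and 35.5 RPKM in WT (L3), with a log2 ratio of -0.70 that was 0.58 length-centred. Thus lin-42 was the most-read timing gene and kept most of its difference after centring, while that of alg-1 shrank to under 2-fold and that of sea-2 changed sign.

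**Figure D4:**
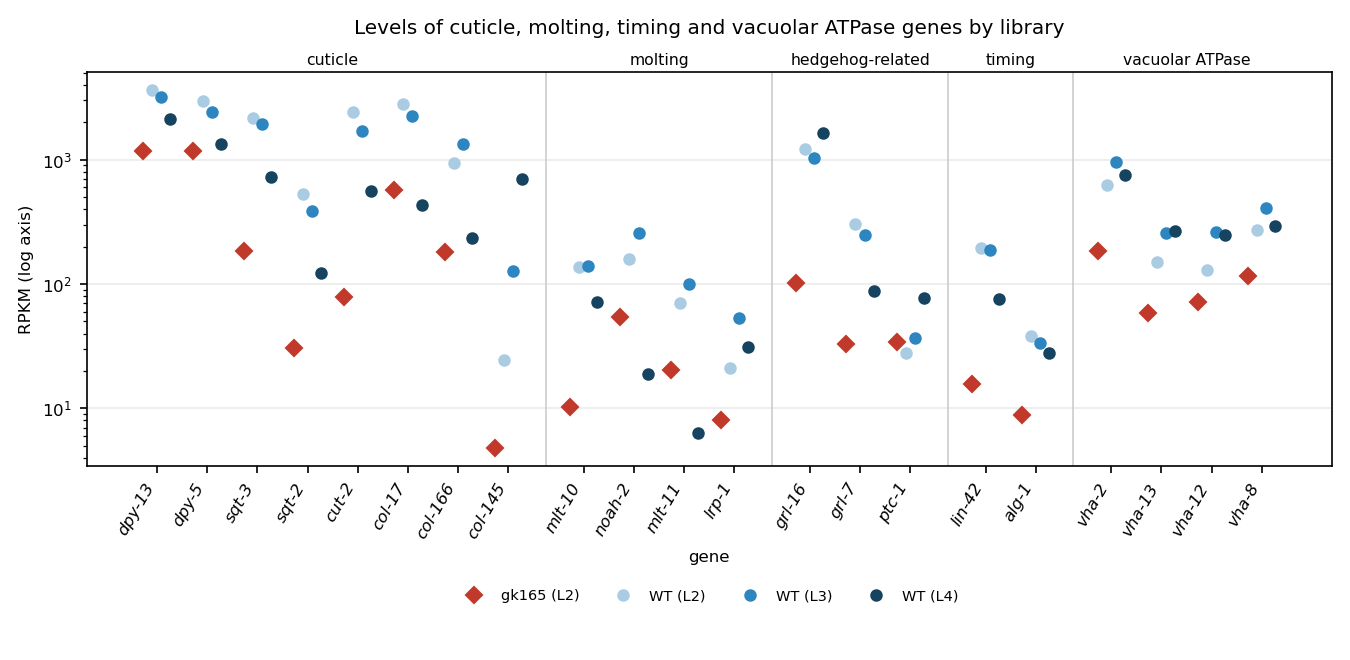
RPKM (log axis) of cuticle, molting, hedgehog-related, timing and vacuolar ATPase genes in gk165 (L2) (diamonds) and in WT (L2), WT (L3) and WT (L4) (circles, light to dark), 1 library each. The gk165 (L2) value is below WT (L2) and WT (L3) for every gene drawn except ptc-1, whose values were 34.4, 27.9 and 36.6 RPKM in gk165 (L2), WT (L2) and WT (L3).

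Genes of vulval induction, the event that marks the L3, were thinly covered. Of 25 tested, 11 were at least 2-fold lower and 1 higher, with a median of -0.91 that was -0.10 length-centred, next to the centre of all genes. let-60, the Ras of the pathway, had 8 reads in gk165 (L2) and 53 in WT (L3) (log2 -1.19), and mpk-1, its ERK kinase, had 5 and 31 reads (log2 -1.35). mek-2, the MEK kinase between them, had 4 reads in gk165 (L2) and 30 in WT (L3) (log2 -2.61, counting interval -3.86 to -0.39). From the 3′-most exon alone the log2 ratios were -1.85 for let-60, -0.94 for mpk-1 and -0.22 for mek-2. The 1 higher member, lin-3, the epidermal growth factor that the anchor cell sends out, had 57.5 reads in gk165 (L2) and 14 in WT (L3), but 56.5 of the gk165 (L2) reads lay in its last listed exon, which overlaps an exon of the opposite-strand gene ttr-16 (chromosome IV, 11063094 to 11063613 against 11063512 to 11063738). Whether the counting used strand is not given in the sources used here, so these reads cannot be told apart from those of ttr-16.

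Germline genes, whose summed level grows between WT (L2) and WT (L4), had lower ratios that mostly shrank to under 2-fold once length-centred. Of 29 tested, 15 were at least 2-fold lower than in WT (L3) and 0 higher, with a median of -1.11 that was -0.18 length-centred. Of all genes, 34.8% were lower and 20.7% higher. Length-centred, 3 of the 29 were at least 2-fold lower and 2 higher, where 24.7% and 25.6% of all genes were. Their summed level was 466 RPKM in gk165 (L2), against 782 RPKM in WT (L3), with 421 RPKM in WT (L2) and 3628 RPKM in WT (L4). A large share of these sums was iff-1, and without it they were 272.5 RPKM in gk165 (L2) and 526 RPKM in WT (L3), with 328 RPKM in WT (L2). By gene, 16 of the 29 lay between WT (L2) and WT (L3), 4 had no read in gk165 (L2) or WT (L2) and 8 lay below both, where 23.5% of all genes were between or level and 40.3% below both. glh-1, the P granule helicase, had 26.6 RPKM in gk165 (L2) and 58.7 RPKM in WT (L3), with 18.6 RPKM in WT (L2) and 275 RPKM in WT (L4), but its log2 ratio of -1.11 was 0.15 from the 3′-most exon. iff-1, a germline initiation factor, had 194 RPKM in gk165 (L2) and 256 RPKM in WT (L3) (log2 -0.40, counting interval -1.02 to 0.16), and car-1, an RNA-binding P granule protein, had 40.1 and 97.8 RPKM (log2 -1.26, counting interval -2.41 to -0.77).

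Genes of DNA replication and of cell division had more lower than higher members, at low read numbers. Of 29 replication genes tested, 14 were at least 2-fold lower and 2 higher (median -0.96, length-centred -0.59), and of 23 cyclin and mitosis genes 16 were lower and 1 higher (median -1.08, length-centred -0.51). Of all genes, 34.8% were lower. Length-centred, 9 of the 29 were lower and 3 higher, and 9 of the 23 were lower and 1 higher, where 24.7% of all genes were lower and 25.6% higher. pcn-1, the sliding clamp PCNA, had 23.4 RPKM (12 reads) in gk165 (L2), against 109 RPKM (57 reads) in WT (L3) (log2 -2.18). rpa-2, a single-strand binding subunit, had 96.1 RPKM in gk165 (L2) and 149 RPKM in WT (L3) (counting interval -0.66 to 0.57). rnr-1, the large subunit of ribonucleotide reductase, named after its values were seen, had 0 reads in gk165 (L2) and 38.5 in WT (L3), which is at least 6.37-fold lower, whereas the small subunit rnr-2 had 38.3 RPKM in gk165 (L2) and 47.4 RPKM in WT (L3) (counting interval -0.93 to 0.76). Among histones 7 of 19 were at least 2-fold lower and 7 higher (median -0.14, length-centred -0.38), and the replacement histone his-72 had 213 RPKM in gk165 (L2) and 482 RPKM in WT (L3).

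Outside the cuticle and timing lists the lowest median was that of the vacuolar ATPase, the proton pump of lysosomes, gut and excretory canal. All 21 subunit genes were tested, 16 were at least 2-fold lower and 0 higher, with a median of -1.70 (length-centred -1.44), and the sum was 1795 RPKM in gk165 (L2), against 5200 RPKM in WT (L3), with 3603 RPKM in WT (L2). vha-2 (chromosome III, 9782164 to 9783212), a proteolipid of the membrane ring, had 185 RPKM (52 reads) in gk165 (L2), against 961 RPKM (505 reads) in WT (L3), 5.18-fold lower (log2 -2.37, counting interval -2.71 to -1.85). The catalytic subunit vha-13 had 58.4 RPKM in gk165 (L2) and 255 RPKM in WT (L3) (log2 -2.11, counting interval -2.86 to -1.89), and its partner vha-12 had 71.3 and 260.3 RPKM (log2 -1.85). vha-8, a stalk subunit, had 117 RPKM in gk165 (L2) and 407 RPKM in WT (L3) (log2 -1.79). The 5 subunit genes short of 2-fold, named after their values were seen, were vha-5 (log2 -0.82), vha-6 (-0.70), the proteolipid vha-1 (-0.54), vha-17 (-0.13) and vha-18, the 1 with a positive ratio (0.77).

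Muscle filament genes were lower as a list, with 21 of 30 at least 2-fold lower, 0 higher and a median of -1.40 (length-centred -0.99). unc-54, the main body wall myosin, had 319.7 RPKM (487 reads) in gk165 (L2), against 1468 RPKM (4775 reads) in WT (L3) (log2 -2.20, counting interval -2.42 to -2.15, length-centred -0.92), and tropomyosin lev-11 had 465 and 1821 RPKM (log2 -1.97). Troponin C pat-10 had 4443 RPKM in gk165 (L2) and 3600.4 RPKM in WT (L3), a log2 ratio of 0.30. The pharyngeal myosins myo-1 and myo-2, named after their values were seen, had 10.6 and 20.8 RPKM in gk165 (L2), against 153 and 159.9 RPKM in WT (L3). The pharyngeal myosins were thus lower in gk165 (L2) (log2 -3.73 and -2.88) and pat-10 was not.

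Summed levels of intestinal, pharyngeal, body wall muscle and hypodermal markers were lower as well, but single markers differed in direction. The part of cell types in the results was not tested. The summed level of 5 intestinal markers was 218 RPKM in gk165 (L2), against 1379 RPKM in WT (L3), with 4 of 5 at least 2-fold lower and the transcription factor elt-2 without a read in gk165 (L2), against 8 in WT (L3). The sum of 5 pharyngeal markers was 77.7 RPKM in gk165 (L2) and 551 RPKM in WT (L3), with 4 of 5 lower and the transcription factor pha-4 on 2.5 and 10.5 reads. The sum of 5 body wall muscle markers was 989 RPKM in gk165 (L2) and 3096 RPKM in WT (L3), with 3 of 5 lower and the muscle determinant hlh-1 on 11.5 and 3 reads. The sum of 6 hypodermal markers was 554 RPKM in gk165 (L2) and 3184 RPKM in WT (L3), with 3 of 6 lower and the transcription factor elt-3 on 9 and 15 reads. The muscle and hypodermal sums rest largely on genes that are also in the lists above. The 6 neuronal markers summed to 686 RPKM in gk165 (L2) and 608 RPKM in WT (L3), with 1 of 6 lower and a median log2 ratio of -0.35 (length-centred 0.38). Without the synaptic vesicle gene snb-1 the neuronal sum was 287 RPKM in gk165 (L2) and 348 RPKM in WT (L3). The defining transcription factors elt-2, pha-4, hlh-1 and elt-3 thus had at most 15 reads in either library. Scaled to library size, their log2 ratios were -2.33, 0.05, 2.68 and 0.26, with no common direction. The gut actin act-5, which lines the microvilli, had 119 RPKM (42 reads) in gk165 (L2), against 1078 RPKM (806 reads) in WT (L3), 9.01-fold lower (counting interval -3.73 to -2.80). The gut protease asp-1, on the other hand, had 4895 RPKM in gk165 (L2) and 3580.3 RPKM in WT (L3), so that gut genes did not share 1 direction: of 28 gut lumen genes 8 were at least 2-fold lower and 3 higher (median 0.09, length-centred 0.31).

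Protein turnover and methyl-group metabolism were lower as lists. Of 33 proteasome genes 21 were at least 2-fold lower and 1 higher (median -1.27, length-centred -0.96), and pas-5, a subunit of the outer ring, had 73.3 RPKM in gk165 (L2) and 333 RPKM in WT (L3) (log2 -2.17, counting interval -3.05 to -1.51). The 1 higher member was rpn-8, of the regulatory particle, named after its values were seen, with 176 RPKM in gk165 (L2) and 79.4 RPKM in WT (L3) (2.2-fold). Of 20 genes of the methionine and one-carbon cycle 12 were lower and 1 higher (median -1.40, length-centred -0.92). sams-1, which makes S-adenosylmethionine, had 29.7 RPKM (17 reads) in gk165 (L2), against 335 RPKM (505.5 reads) in WT (L3), 10.9-fold lower (log2 -3.45, counting interval -4.68 to -3.19). pmt-2, which uses that methyl donor to make phosphatidylcholine and was named after its values were seen, had 7 reads in gk165 (L2) and 216 in WT (L3) (log2 -3.90), and ahcy-1, which clears the product, had 606 and 1597 RPKM (log2 -1.40). The 1 higher member was cbs-1, cystathionine beta-synthase, also named after its values were seen, with 70.4 RPKM in gk165 (L2) and 16.4 RPKM in WT (L3).

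The protein synthesis machinery split by part. Of 83 cytosolic ribosomal protein genes 13 were at least 2-fold higher and 1 lower (median 0.18, length-centred -0.07), and rla-0, a stalk protein, had 4843 RPKM in gk165 (L2) and 3763 RPKM in WT (L3). Of 37 translation factors 19 were lower and 2 higher (median -1.02, length-centred -0.83). Their sum was not lower, with 18075.6 RPKM in gk165 (L2) and 17375.5 RPKM in WT (L3). Elongation factor eef-2, short of 2-fold either way, had 2141 RPKM in gk165 (L2) and 1829 RPKM in WT (L3) (log2 0.23, counting interval 0.06 to 0.22). Nucleolar genes that build ribosomes were lower in 8 of 16 and higher in 4 (median -1.07, length-centred -0.45), with fibrillarin fib-1 at 60.3 RPKM (37 reads) in gk165 (L2), against 394 RPKM (426 reads) in WT (L3), 6.44-fold lower (log2 -2.69, counting interval -3.04 to -2.03). nst-1, nucleostemin, was higher, with 121 RPKM in gk165 (L2) and 57.96 RPKM in WT (L3) (log2 1.05). Mitochondrial ribosomal proteins (63 tested, 11 higher, 12 lower, median -0.09, length-centred -0.15) and subunits of the respiratory chain and ATP synthase (39 tested, 4 higher, 6 lower, median -0.19, length-centred -0.15) stayed closer to WT (L3). atp-2, the catalytic beta subunit, had 1131 RPKM in gk165 (L2) and 1629 RPKM in WT (L3). Of 19 TCA cycle genes 10 were at least 2-fold lower and 0 higher (median -1.15, length-centred -0.69), and length-centred 6 were lower and 1 higher. The chaperone hsp-60 of the mitochondrial matrix was lower, with 61.1 RPKM in gk165 (L2) and 268 RPKM in WT (L3) (log2 -2.11, counting interval -2.79 to -1.73), and hsp-3, an ER relative of Hsp70, had 127 and 609 RPKM (log2 -2.25).

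On the higher side the gene with the most reads in the gk165 (L2) library was acs-2 (chromosome V, 15567394 to 15569889), an acyl-CoA synthetase that feeds fatty acids into mitochondrial oxidation and is known as a fasting gene. It had 4042 reads and 7464 RPKM in gk165 (L2), against 28 reads and 25.9 RPKM in WT (L3), 278-fold higher (log2 8.12, counting interval 7.65 to 8.78), with 18.9 RPKM in WT (L2) and 61.6 RPKM in WT (L4). Of the 25 beta-oxidation genes tested, 5 were at least 2-fold higher and 4 lower, with a median of -0.01, while length-centred 9 were higher and 2 lower, with a median of 0.54. acdh-2, an acyl-CoA dehydrogenase, and maoc-1, a peroxisomal enzyme, both named after their values were seen, had 186 and 178 RPKM in gk165 (L2), against 5.98 and 36.4 RPKM in WT (L3). acdh-1, which breaks down short branched chains, had 471 RPKM in gk165 (L2) and 473 RPKM in WT (L3), a log2 ratio of -0.01.

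Autophagy and lipid genes showed higher and lower members side by side. lgg-1, the Atg8 protein of autophagosomes, had 3376 RPKM (696 reads) in gk165 (L2), against 379.7 RPKM (152 reads) in WT (L3), 8.87-fold higher (log2 3.15, counting interval 2.95 to 3.47), and lgg-2, its relative, had 212 and 76.4 RPKM (log2 1.46). The list of lysosomal lipases and fasting genes that holds both had 6 of 15 at least 2-fold higher and 2 lower (median -0.09, length-centred 0.72), and the lipase lipl-5 was the most-read lower member, with 98.4 RPKM in gk165 (L2) and 383 RPKM in WT (L3) (log2 -1.95). Of 21 genes of fatty acid synthesis and desaturation 4 were higher and 8 lower (median -0.64), and length-centred 6 were higher and 5 lower (median -0.20). Among the desaturases fat-1, which makes omega-3 fats, had 693 RPKM in gk165 (L2) and 234 RPKM in WT (L3) (log2 1.56, counting interval 1.37 to 1.92), and fat-2 had 541 and 328 RPKM (log2 0.72). Fatty acid synthase fasn-1 stood at 54 reads in gk165 (L2) and 376.5 in WT (L3) (log2 -1.71, length-centred -0.43), and fat-6, which makes oleic acid and was named after its values were seen, had 62.2 and 232 RPKM (log2 -1.88).

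**Figure D5:**
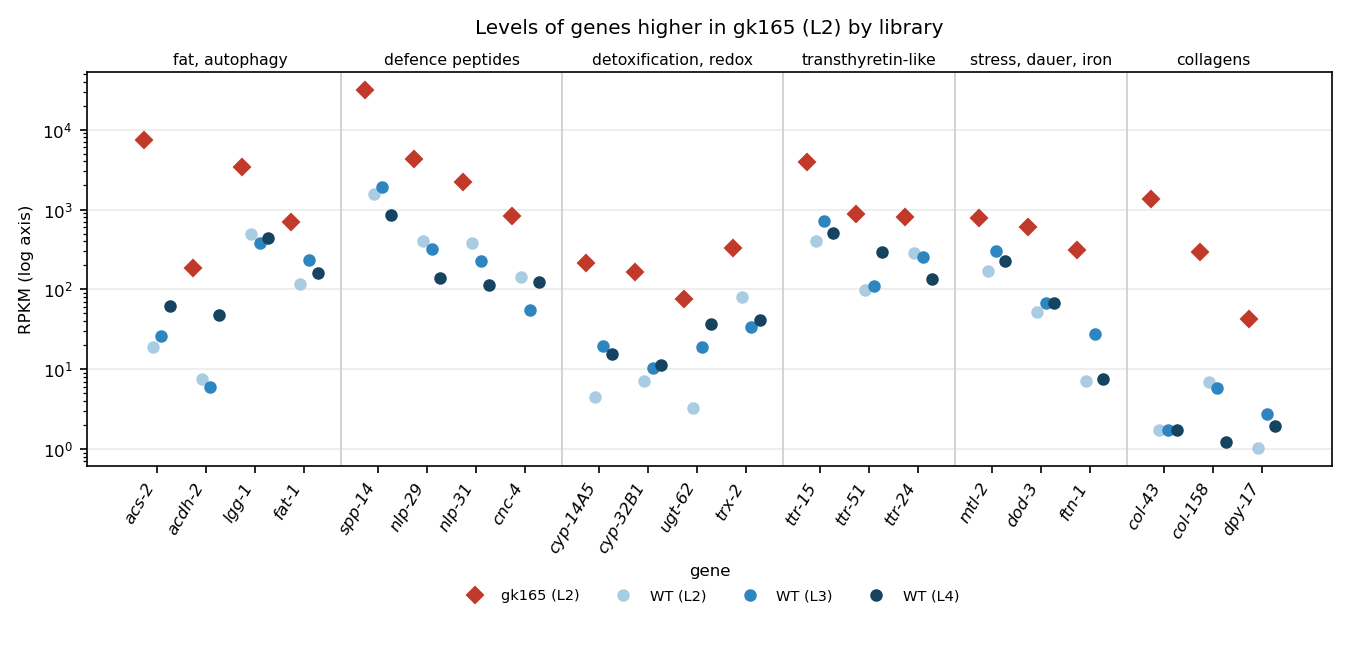
RPKM (log axis) of genes higher in gk165 (L2) than in WT (L3), in gk165 (L2) (diamonds) and in WT (L2), WT (L3) and WT (L4) (circles, light to dark), 1 library each. For every gene drawn the gk165 (L2) value lies above all 3 wild-type stages, for example 7464 RPKM of acs-2 and 31516 RPKM of spp-14 in gk165 (L2), against 25.9 and 1891 RPKM in WT (L3).

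Among secreted defence proteins the summed level was higher, and most of it came from 1 gene. The sum over lysozymes and antimicrobial peptides was 43968 RPKM in gk165 (L2), against 10392 RPKM in WT (L3), with 18 of 53 at least 2-fold higher and 10 lower (median 0.55). Length-centred, 15 were higher and 12 lower, with a median of 0.17. Of all genes, 20.7% were higher and 34.8% lower, and length-centred 25.6% were higher and 24.7% lower. spp-14 (chromosome X, 7725955 to 7726383), a saposin-like protein of the kind that permeates membranes, made up most of the sum, with 31516 RPKM (3389 reads) in gk165 (L2), against 1891 RPKM (398 reads) in WT (L3), 16.7-fold higher (log2 4.06, counting interval 3.95 to 4.25). The lysozyme ilys-5 was lower, with 73.8 RPKM in gk165 (L2) and 846 RPKM in WT (L3) (log2 -3.50, counting interval -4.79 to -2.70), and spp-5 had 2195 and 1850.4 RPKM. Beyond spp-14 the list therefore held members on both sides.

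The neuropeptide-like list included antimicrobial peptides of the epidermis, and these were its most-read members. Of 44 tested, 15 were at least 2-fold higher and 7 lower (median 0.64, length-centred 0.27). nlp-29, which epidermal wounding and infection induce, had 4332 RPKM (531.5 reads) in gk165 (L2), against 323 RPKM (76 reads) in WT (L3), 13.4-fold higher (log2 3.74, counting interval 3.47 to 4.18). nlp-31 of the same cluster had 2201 RPKM in gk165 (L2) and 227 RPKM in WT (L3) (log2 3.27, counting interval 2.90 to 3.75), nlp-33 had 1340.0 and 640.5 RPKM (log2 1.06), and nlp-24 had 718 and 886 RPKM (log2 -0.30). The caenacin cnc-4, another epidermal antimicrobial peptide, named after its values were seen, had 841 RPKM in gk165 (L2) and 55.0 RPKM in WT (L3) (log2 3.91). C-type lectins had no common direction, with 15 of 59 higher and 22 lower (median -0.37, length-centred -0.10), clec-65 at 332 RPKM in gk165 (L2) and 48.6 RPKM in WT (L3), and clec-50 at 36.4 and 332 RPKM.

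Transthyretin-like proteins, a family of small secreted proteins that is large in nematodes, had the highest median among lists with at least 8 genes tested and 30 reads. Of 40 tested, 23 were at least 2-fold higher and 4 lower, with a median of 1.35 (length-centred 1.098) and a sum of 12577 RPKM in gk165 (L2), against 4101 RPKM in WT (L3), with 2833 RPKM in WT (L2) and 4357 RPKM in WT (L4). ttr-15 had 3913 RPKM (837 reads) in gk165 (L2), against 724 RPKM (260 reads) in WT (L3) (log2 2.43, counting interval 2.50 to 2.90). ttr-51 had 883 RPKM in gk165 (L2) and 109 RPKM in WT (L3) (8-fold higher), and ttr-24 had 814 and 255 RPKM (log2 1.67). ttr-16, the neighbour of lin-3, had 1075 RPKM in gk165 (L2) and 638 RPKM in WT (L3) (log2 0.75).

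Among detoxification enzymes, the cytochrome P450s had more higher than lower members. Of 38 cytochrome P450s, which oxidise lipids and foreign compounds, 16 were at least 2-fold higher and 7 lower (median 0.75, length-centred 1.06). Of all genes, 20.7% were higher and 34.8% lower. The counting interval excluded no change for 13 of the higher and 0 of the lower P450s. The 7 lower ones had at most 16 reads in WT (L3), so few that the interval could hardly exclude no change. Over all genes it did so for 1222 of 2349 higher and 1970 of 3946 lower ones. cyp-14A5 had 211 RPKM (68 reads) in gk165 (L2), against 19.3 RPKM (14 reads) in WT (L3), 10.5-fold higher (log2 3.39, counting interval 2.45 to 4.24), and cyp-32B1 had 164 and 10.3 RPKM (log2 3.88). Of 47 UDP-glucuronosyltransferases, which add sugar to such compounds, 18 were higher and 16 lower (median 0.58, length-centred 0.93), with ugt-62 at 76.6 RPKM in gk165 (L2) and 19.1 RPKM in WT (L3) (log2 1.95). Glutathione S-transferases were near balance, with 7 of 31 higher and 10 lower (median -0.11, length-centred -0.13). trx-2, a mitochondrial thioredoxin, and ftn-1, an iron-storing ferritin, had 331 and 314 RPKM in gk165 (L2), against 34.1 and 27.9 RPKM in WT (L3), trx-2 being named after its values were seen.

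Genes known as targets of the transcription factor DAF-16 or as marks of the dauer larva, the arrest stage that replaces L3 under hardship, were higher in 10 of 19 and lower in 3, with a median of 1.19 (length-centred 1.07). The list was not divided into genes that DAF-16 raises and genes that it lowers. Its counts and median therefore do not measure the activity of DAF-16 or of a dauer programme. mtl-2, a metallothionein, had 783 RPKM (97 reads) in gk165 (L2), against 306 RPKM (59 reads) in WT (L3) (log2 1.35, counting interval 1.25 to 2.22), and dod-3 had 601 and 68.2 RPKM (log2 3.12). lea-1, a desiccation-protective protein of dauers, was lower, with 19.4 RPKM in gk165 (L2) and 61.0 RPKM in WT (L3) (log2 -1.61, length-centred -0.33), and daf-16 itself had 24.2 and 40.7 RPKM (log2 -0.73, length-centred 0.21). hil-1, a linker histone named after its values were seen, had 15.5 reads in gk165 (L2) and 3 in WT (L3) (log2 2.77, counting interval 1.62 to 5.85). The list thus held members on both sides, and its most-read lower member, lea-1, was under 2-fold once length-centred.

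Signalling peptides and the synapse had no common direction. Of 30 FMRFamide-like neuropeptide genes 8 were at least 2-fold higher and 6 lower (median 0.16, length-centred -0.08). Of 18 insulin-like peptide genes 6 were higher and 5 lower (median -0.04, length-centred -0.40). Of 23 genes of synaptic release and peptide processing 1 was higher and 9 lower (median -0.63, length-centred 0.09).

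Adult genes were near the limit of detection in both compared libraries but not equally. The yolk protein genes vit-6 and vit-2 had 27 and 25 reads in gk165 (L2), against 0 and 1 in WT (L3) and 8793 and 7484 in WT (L4). vit-6 was thus at least 18.1-fold higher in gk165 (L2) than in WT (L3), and vit-2 had a counting interval of 3.04 to 11.01 on the log2 scale. The major sperm protein genes together had 7 reads in gk165 (L2) and 4 in WT (L3), against 1723 in WT (L4), and 4 sperm markers had 5 reads in gk165 (L2) and 0 in WT (L3).

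By the rule on size, the largest ratios with at least 30 reads in the higher library fell on genes known only by a sequence name as well as on named ones. Besides col-43 and acs-2, the 12 largest higher ones held dct-7, with 67.5 reads in gk165 (L2) and none in WT (L3), at least 45.3-fold higher, F21C10.11 with 82 reads and none in WT (L3), at least 55.1-fold higher, and W02D7.11 with 32 reads and none in WT (L3), at least 21.5-fold higher. F21C10.10 had 211 reads in gk165 (L2) and 5 in WT (L3) (log2 5.80, counting interval 5.16 to 8.05). T26H5.9 had 258 reads in gk165 (L2) and 8 in WT (L3) (log2 5.84), and Y58A7A.5 had 138 and 3 reads (log2 5.88, counting interval 4.96 to 8.83). The others were F18E3.12, B0205.13, F09F7.6 and C06B3.6, with log2 ratios between 6.78 and 7.35.

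The 12 largest lower ones held 3 collagens, the cuticlin cut-2 and the intermediate filament ifb-1, which anchors muscle through the epidermis to the cuticle. ifb-1 had 3 reads in gk165 (L2) and 197.5 in WT (L3) (log2 -4.54, counting interval -7.32 to -3.47). T06E4.10 had 0 reads in gk165 (L2) and 51 in WT (L3), which is at least 8.43-fold lower, Y66D12A.9 had 0 and 44 reads, at least 7.28-fold lower, and hmbx-1, a homeobox gene, had 0 and 32 reads, at least 5.29-fold lower. K02E11.10 had 1 read in gk165 (L2) and 229 in WT (L3) (counting interval -12.14 to -4.34), with 68 in WT (L2), and K01D12.9 had 1 and 70 reads (counting interval -10.44 to -2.59). The dynein light chain dylt-1, with 0 and 30 reads, and Y53G8AR.9, with 3 and 72.5 reads, completed the set. Among the 24 genes, col-156, ifb-1, cut-2, F09F7.6, Y58A7A.5 and F21C10.10 overlap an annotated gene on the other strand. So do bli-4, col-125, col-158, col-19, acn-1, lpr-3, mek-2, iff-1, rnr-2, rpa-2, nst-1, myo-1, lgg-2, maoc-1, nlp-24, ttr-51, lea-1, trx-2, vit-2 and vit-6 among the genes described above. Same-strand neighbours overlap F21C10.11, mlt-10, mlt-11, noah-2, pdi-2, alg-1, sea-2, vha-2, vha-13 and acdh-2. Reads of such pairs may be shared, and near-identical copies were not examined.

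Finally, all genes were ordered by their course between WT (L2) and WT (L4), which uses neither compared library, to ask whether genes that build up over these stages were broadly low in gk165 (L2). Genes short of 5 RPKM in both compared libraries were then left out, a filter that does use these 2 libraries. Of 4868 genes at least 2-fold higher in WT (L4) than in WT (L2), 3716 remained. Of these 3716, 22.4% were higher and 34.3% lower by 2-fold or more in gk165 (L2) against WT (L3). Their median was -0.35 (length-centred 0.10). Of 1901 genes at least 2-fold lower in WT (L4) than in WT (L2), 1798 remained. Of these, 24.5% were higher and 38.0% lower, with a median of -0.36 (length-centred -0.09). Of the 5386 genes between, 5301 remained, with 15.1% higher, 35.0% lower and a median of -0.48 (length-centred -0.10). Among genes with at least 30 reads in the 2 compared libraries together, the medians of these classes were -0.72 for the 1063 that build up (length-centred -0.03), -0.59 for the 427 that decline (length-centred -0.32) and -0.57 for the 2681 between (length-centred -0.16). With a 4-fold change between the stages and the same read minimum, they were -0.61 for 225 genes that build up (length-centred 0.09), -0.84 for 144 that decline (length-centred -0.58) and -0.60 for 3802 between (length-centred -0.14). The order of the 3 classes thus changed with the stage threshold, the read minimum and the centring.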

How the data were processed

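Whole larvae of C. elegans, grown on plates with OP50 bacteria, gave 1 directional polyadenylated RNA library per condition (NEB Ultra II kit, MiSeq). The authors trimmed reads with Trim Galore 0.4.1 and cutadapt 1.14, aligned them to WBcel235 with TopHat2 2.1.0 and Bowtie2, counted them on merged exons with featureCounts and made edgeR 3.26.8 values. They deposited log2 RPKM per exon with a small offset, so that an exon without a read is not at 0. The rule that chose the listed exons and the use of strand in counting are not given in the sources used here. Here values were made linear, averaged over the exons of each gene and compared as log2(RPKM + 1), with a minimum of 5 RPKM in 1 library. Reads were recovered from the smallest steps between values, after removal of the offset: 100% of values fell on hundredths of a read, and 62.1% (gk165 (L2)) and 51.6% (WT (L3)) on whole reads.

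Named genes were the 12 largest ratios each way with at least 30 reads in the higher library, the 4 most-read members of each list, sdhb-1 and cup-15. Members and lists were chosen with earlier results of these data known, and length-centring (genes in 20 bins of exon length from Ensembl 115, in which 12766 of 12798 IDs matched) and the 3′-most exon were added after seeing the data. Other alternatives were other thresholds, exon summaries, pooled reads and centring. Intervals are exact binomial ones at 95%, and the procedure was tested on simulated data. The scripts ran in Python 3.11.15 with scipy 1.17.1 for intervals, pandas 2.3.3 and numpy 2.4.6 for tables, and matplotlib 3.10.9 for plots.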

Additional observations from a re-analysis of the deposited data

How the results depend on the processing

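No paired analysis was possible because each condition has 1 library, and none could be left out. The 2349 genes at least 2-fold higher in gk165 (L2) became 3849 from the 3′-most exon, 1487 at 3-fold and 1222 where the counting interval also excluded no change. The 3946 lower genes became 2560 at 20 RPKM, 2456 at 3-fold and 1970 with the interval. Lists with a median at least 2-fold lower numbered 15, against 6 when centred on all genes, 5 from the exon with the highest mean, 3 length-centred and 4 from the 3′-most exon. Lists with a median at least 1.5-fold higher numbered 4, against 8 when centred on all genes, 7 from the exon with the highest mean, 8 from pooled reads, 7 length-centred, 17 from the 3′-most exon and 7 over members with at least 5 RPKM. Genes that build up between WT (L2) and WT (L4) had a median of -0.35, against 0 for a 4-fold stage change and 0.10 length-centred, and genes that decline had -0.36, against -0.089 length-centred. The log2 ratio of pdi-2 was 0.038 from the exon with the highest mean or the 3′-most exon, that of glh-1 was 0.34 and 0.15 from these exons, and that of ptc-3 was 0.000134 length-centred. The cause of these shifts was not tested. Over the lists and settings, 27 single list medians moved outside the median counting interval of their members and 339 did not. The log2 ratios of single genes were less steady, with 243 counted as moved, 5 as reversed and 704 as the same. With 3 reads worth 10.9 CPM in gk165 (L2) and 5.39 CPM in WT (L3), differences among genes of few reads were not detectable at this depth.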
